A study of Homo sapiens with 20 samples.

Results

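Untreated ANBL6 cells were set against untreated cells of 3 unrelated multiple myeloma lines, ARP1, RPMI8226 and U266, in RNA sequencing of total RNA. Multiple myeloma is a cancer of antibody-secreting plasma cells, and ANBL6 is a line known for its need of interleukin-6 for growth. The members are 8 of the 20 libraries of the series, the DMSO (vehicle) libraries of these lines, all labelled wild type: 2 of ANBL6, 2 of ARP1, 2 of RPMI8226 and 2 of U266. The libraries labelled as the bortezomib-resistant form of ANBL6 in DMSO (2 libraries, called ANBL6BR here) were left out of the comparison. Their values are given beside it. The same lines with indirubin-3'-monoxime (I3MO), a kinase inhibitor, at 5 µM in ANBL6 and 10 µM in the other 3 lines, gave libraries that the choice of genes did not use. The labels name bone marrow as the source and state neither the culture medium, nor any added interleukin-6, nor whether 2 libraries of a line were grown apart. All p-values measure only how far such libraries differ, which may be technical, and each line is 1 sample of its kind.

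Plasma cells make and export large amounts of immunoglobulin, which loads the endoplasmic reticulum (ER), and they carry surface proteins such as syndecan-1 (CD138) and B-cell maturation antigen that define them in the clinic. Amino acid shortage and ER stress both act through the transcription factor ATF4, which raises genes of amino acid synthesis, uptake and transfer RNA charging. ATF4 partners with C/EBP proteins on a composite DNA motif and with CHOP, which it induces. Myeloma lines differ in the translocation that started the tumour, in NF-kB activity and in cytokine signalling, so a gene that sets 1 line apart need not be a gene of the disease.

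Levels are in FPKM, which divides the fragments of a gene by its length and by the library total. The deposited values count every transcript's exons in that length, so a gene with many transcripts looks low beside a gene with few. A gene was tested when it reached 1 FPKM in at least 2 of the 8 libraries, which 13348 of 60483 listed genes did. Differences are ANBL6 minus the mean of the 3 other lines on the log2(FPKM + 1) scale, ± SE, and are understated for low genes. A gene was called when ANBL6 differed in 1 direction from each of the 3 lines (limma, 3 contrasts, the largest p kept, Benjamini-Hochberg adjusted p under 0.05). A gene lay outside the range when both ANBL6 libraries were above, or both below, all 6 other libraries. The gap is the log2 distance from the nearest ANBL6 library to the nearest other library. Library totals recovered from the FPKM steps were 14.47 M fragments in both ANBL6 libraries, against 13.75 to 18.03 M in the other 6. Replicates of a line correlated across genes at 0.96 to 0.981. In mean log2 values ANBL6 correlated most with RPMI8226 (0.809), then ARP1 (0.724), then U266 (0.64), where genes are not independent replicates.

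The ANBL6 and ANBL6BR libraries stood apart together from the other lines in features that are not specific to a pathway. MT-RNR2, the large mitochondrial ribosomal RNA, was at 0.798 and 1.42 FPKM in ANBL6 and at 1327 to 4924 FPKM in the other 6 libraries, with 0.797 and 0.847 FPKM in ANBL6BR. Of 15 mitochondrial transfer RNA genes tested, 14 lay above the range in ANBL6 and 12 in ANBL6BR. Of 79 cytosolic ribosomal protein genes, many of which have near-identical pseudogenes, 58 lay below the range in ANBL6 and 65 in ANBL6BR. Of 76 protein-coding genes in the MHC region of chromosome 6 (29555629 to 33580293, hg38), 59 lay below in ANBL6 and 58 in ANBL6BR. Over all 13348 tested genes, 3399 lay above and 2134 below in ANBL6, and 3117 and 2147 in ANBL6BR. The median difference also followed the GC content of a gene's exons. It was 0.614 in ANBL6 and 0.561 in ANBL6BR for genes of 23.1% to 42.4% GC, and -0.217 in ANBL6 and -0.237 in ANBL6BR for genes of 58.5% to 86.4% GC. RPMI8226, set against ANBL6, ARP1 and U266, went the other way, at -0.526 and 0.058 in these groups. Each such value depends on the lines it is set against. A difference of the ANBL6 cells and a difference in how these libraries were made or counted cannot be told apart for such genes. For that reason results are also given for sequence-unique genes. These are 6361 tested protein-coding nuclear genes outside the MHC region, with exons of at least 500 bases, at most 10% of 32-base stretches shared with other genes, at most 25% exon overlap and no named pseudogene. Their definition, the GC adjustment and the use of ANBL6BR as a further line were chosen after the data were seen.

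**Figure D1:**
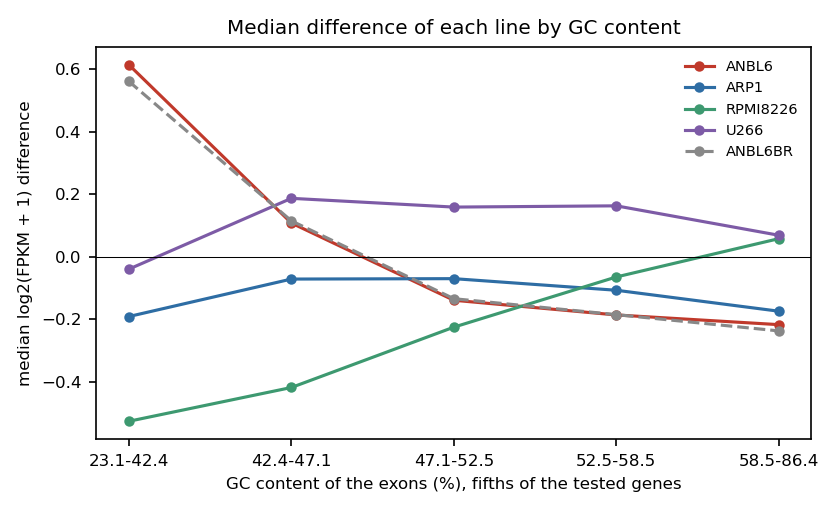
Median difference of each line from the mean of the other untreated lines (ANBL6BR from ARP1, RPMI8226 and U266), on the log2(FPKM + 1) scale, in 5 equal groups of the tested genes by GC content (x axis, percent). Lines join the 5 medians of a cell line. ANBL6 and ANBL6BR run together, at 0.614 and 0.561 at the lowest GC content and -0.217 and -0.237 at the highest. RPMI8226 runs the other way, at -0.526 and 0.058.

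Both ANBL6 libraries lay above the other 6 in 3399 of 13348 genes (25.5% of those tested) and below them in 2134 (16%). By the 3-contrast test 2413 genes (18.1%) were higher in ANBL6 than in each other line and 1119 (8.38%) were lower. A gap of at least 2-fold was found in 687 genes above (5.15%) and 276 below (2.07%). The other lines lay outside the range of the rest as well. In the place of ANBL6, U266 had 3780 genes above and 2006 below, ARP1 had 2163 and 2099, and RPMI8226 had 1393 and 2661. ANBL6 was thus second to U266 in genes above, and no test sets these counts against each other. Among sequence-unique genes 1492 of 6361 were called higher (23.5%) and 532 lower (8.36%), 1912 lay above (30.1%) and 952 below (15%), and 66 lay below by at least 2-fold (1.04%) against 327 above (5.14%). After median-ratio scaling of the libraries, which moved the median difference of all genes to -0.116, against -0.00605 as deposited, 51.1% of the genes outside the range were above, against 61.4% as deposited. With an adjustment for GC content and length, 57.3% of the called genes were higher, against 68.3% without it. With ANBL6BR as a further line, 943 genes were called higher (7.06%) and 287 lower (2.15%), 2063 lay above (15.5%) and 1217 below (9.12%), and 271 (2.03%) and 58 (0.435%) did so by at least 2-fold. Of the 13348 genes 1139 (8.53%) reached 1 FPKM in fewer than 2 of the other 6 libraries, and were tested only because they are high in ANBL6. The counts of gene lists given further on leave out such members, a choice made after the data were seen, and are set beside the 12209 other genes, of which 13% were higher and 9.17% lower. The counts of calls were 1063 higher and 690 lower without ANBL6 replicate 1, and 1080 and 678 without ANBL6 replicate 2.

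**Figure D2:**
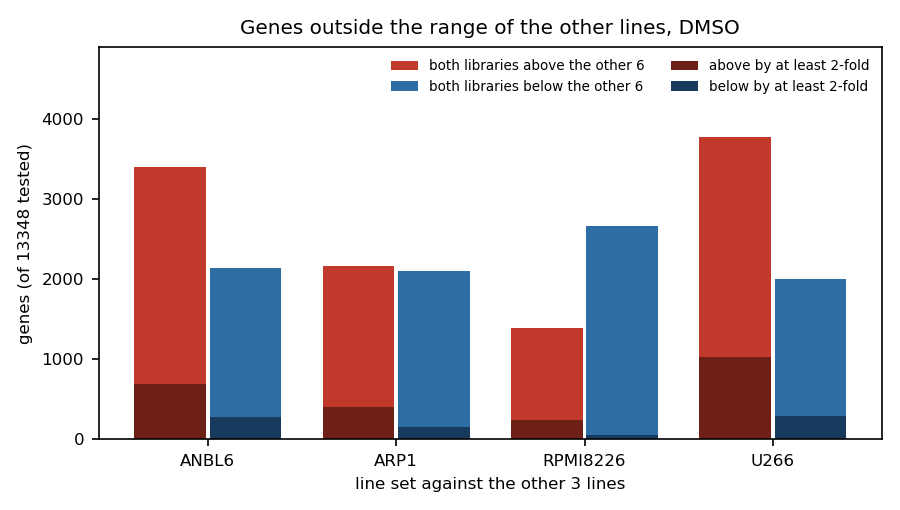
Number of tested genes (of 13348) whose 2 DMSO libraries lay above or below all 6 libraries of the other 3 lines, for each line in turn. Red bars count genes above and blue bars genes below, with the dark part of each bar for a gap of at least 2-fold. ANBL6 had 3399 genes above and 2134 below, U266 3780 and 2006.

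In the I3MO libraries, which the rule did not use, 2011 of the 3399 genes above the range in DMSO (59.2%) were again above in ANBL6 and 1 was below. Of the 2134 genes below, 1241 (58.2%) were again below and 9 were above. The DMSO genes again above made up 78.2% of the 2572 genes above in I3MO (19.3% of those tested), and those again below 75% of the 1655 below (12.4%). The dose differed between ANBL6 and the other lines, and the ANBL6 libraries of both treatments share what sets them apart.

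The widest gaps belonged to immunoglobulin light chain genes, mitochondrial RNAs and genes with near-identical copies. The lambda variable gene IGLV2-11 and the variable pseudogene IGLV2-28 stood at 2115 and 1645 FPKM and at 1473 and 1204 FPKM in ANBL6, against at most 0.986 FPKM of IGLV2-11 and a listed 0 of IGLV2-28 in the other 6 libraries. Both were low in ANBL6BR too, at 3.64 and 4.54 FPKM and at 6.39 and 2.3 FPKM. The descent of ANBL6BR from ANBL6 is taken from the labels and was not tested. IGLJ3, a lambda joining segment, stood at 949 and 805 FPKM in ANBL6, against 0 to 4.07 FPKM, and at 70.1 and 85.7 FPKM in ANBL6BR. Variable genes and their pseudogenes resemble each other, so the split of reads between them is uncertain. MT-ATP8, a subunit of mitochondrial ATP synthase, stood at 4370 and 4195 FPKM in ANBL6, against 3.5 to 13.8 FPKM, and at 1595 and 2945 FPKM in ANBL6BR. The mitochondrial transfer RNAs MT-TY, MT-TC, MT-TL1 and MT-TG, at 22.7 to 310 FPKM in ANBL6, were listed at 0 in all 6 other libraries and stood at 9.26 to 307 FPKM in ANBL6BR. The other genes above included ANKRD22 and GNA15, the ATP synthase subunit gene ATP5ME, and the pseudogenes HDGFP1, MTATP8P2 and MTND4P12. All of these named genes but IGLJ3, MT-ATP8, MTATP8P2 and MTND4P12 were tested only because they are high in ANBL6. The 15th gap was 4.48 (ATP5ME) and the next 4.32 (GAPDHP35).

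The 15 genes furthest below were, besides MT-RNR1 and MT-RNR2, ribosomal protein genes, a histone gene and pseudogenes. RPS27, a small-subunit ribosomal protein gene, stood at 4.8 and 5.21 FPKM in ANBL6, against 379 to 691 FPKM in the other 6 libraries, and at 5.1 and 4.48 FPKM in ANBL6BR. H3-3A, which encodes the replication-independent histone H3.3, stood at 1.36 and 1.57 FPKM in ANBL6, against 47.2 to 92.4 FPKM, and at 1.55 and 1.6 FPKM in ANBL6BR. RPL7, RPS26, RPS28, RPL9 and RPS3A and the pseudogenes RPL41P1, H3P6, RPL39P3, SNRPGP10 and RPS28P7 were among the rest, with gaps of -3.71 to -9.84. ANBL6 lay below ANBL6BR as well in 1 of these 15 genes, RPL9, and above ANBL6BR as well in 11 of the 15 genes at the high end. All 30 were on the same side in I3MO. The 15th gap below had a size of 3.71 (RPS28P7) and the next of 3.69 (RPL21).

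Genes with little sequence shared with other genes gave another list. Among sequence-unique genes in which ANBL6 also lay beyond ANBL6BR, only those that passed the test with ANBL6BR as a 4th contrast were kept. Of these, 270 were higher and 68 lower at the level required for naming (5 FPKM in the higher cells). For higher genes ANBL6 alone had to reach that level, and for lower genes each of the other lines, ANBL6BR included. The rule thus favours higher genes, so 270 is not set against 68, and the share over all genes is not given here. ANKRD22 (ENSG00000152766.5, chromosome 10, 88822132 to 88851818), an ankyrin repeat protein gene, stood at 101 and 102 FPKM in ANBL6, and at 0 in ARP1, 0.352 and 0.372 in RPMI8226, 0 in U266 and 0 in ANBL6BR. Its difference was 6.53 ± 0.04 (limma adjusted p = 1.94e-07). GNA15 (ENSG00000060558.3, chromosome 19, 3136193 to 3163769), the alpha subunit of a G protein of blood cells, stood at 31.8 and 28.7 FPKM in ANBL6, and at 0.017 to 0.236 in the 3 lines, with 0.0986 and 0 in ANBL6BR. SERPINB1 (ENSG00000021355.11, chromosome 6, 2832332 to 2842006), an inhibitor of neutrophil proteases, stood at 143 and 101 FPKM in ANBL6, and at 8.18 and 9.2 in ARP1, 8.47 and 8.25 in RPMI8226 and 0.0551 and 0.0613 in U266, with 0 and 0.0263 in ANBL6BR. ANKRD22 and GNA15 were tested through ANBL6 alone, and the rule that chose these genes already requires that no line overlaps ANBL6.

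Several genes of this list were near 0 in all lines but ANBL6. Of the 15 higher genes, all but SERPINB1, MAB21L4 and PCDH1 were tested through ANBL6 alone. Low levels in the other lines thus follow from how these genes were chosen. LIPC, hepatic lipase, stood at 9.73 and 9.51 FPKM in ANBL6 and at most 0.0252 elsewhere. COL4A2, a chain of basement membrane collagen, stood at 6.96 and 7.54 FPKM and at most 0.0942 in the 3 lines. The annexin gene ANXA13 (9.94 and 9.74 FPKM, at most 0.0453 in the 3 lines), the vasopressin receptor gene AVPR1A (7.3 and 6.62 FPKM, at most 0.108) and PLS3, an actin-bundling plastin (8.3 and 7.88 FPKM, at most 0.153), had the same pattern. TSPAN11, PNPLA7, MAB21L4, PDE6G, PDZK1IP1, GIMAP4, a GTPase gene of lymphocytes, and PCDH1, a protocadherin gene, completed the 15, with gaps of 2.58 to 4.04. All 15 were above the range in I3MO too, and all 15 kept their direction with the GC adjustment, with ANKRD22 at 6.4 and PLS3 at 2.6.

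At the low end PGRMC1 (ENSG00000101856.9, chromosome X, 119236245 to 119244466), a heme-binding membrane protein gene, stood at 0 and 0.0188 FPKM in ANBL6, and at 17.5 and 20.1 in ARP1, 13.1 and 11.3 in RPMI8226 and 10.4 and 10.3 in U266. ANBL6BR, labelled as a form of the same line, stood at 17.4 and 26.3 FPKM. The difference of ANBL6 from the 3 lines was -3.83 ± 0.08 (limma adjusted p = 7.6e-06). LGALS1 (ENSG00000100097.10, chromosome 22, 37675608 to 37679806), which encodes the secreted lectin galectin-1, stood at 6.49 and 8.03 FPKM in ANBL6, and at 60.7 to 217 FPKM in the 3 lines, with 84.7 and 60.3 in ANBL6BR. H1-2, a linker histone gene, stood at 23.4 and 23.8 FPKM in ANBL6, and at 338 and 352 in ARP1, 54.1 and 51.3 in RPMI8226 and 298 and 307 in U266. It was the 1 gene of these 15 that lay inside the range in I3MO. The others were C6orf226, UBE2QL1, NMB (neuromedin B), MAGEH1, EMP3, TGFB1, UBALD2, VAT1, ALDOC and 3 genes of the ATF4 response, INHBE, PHGDH and SESN2.

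**Figure D3:**
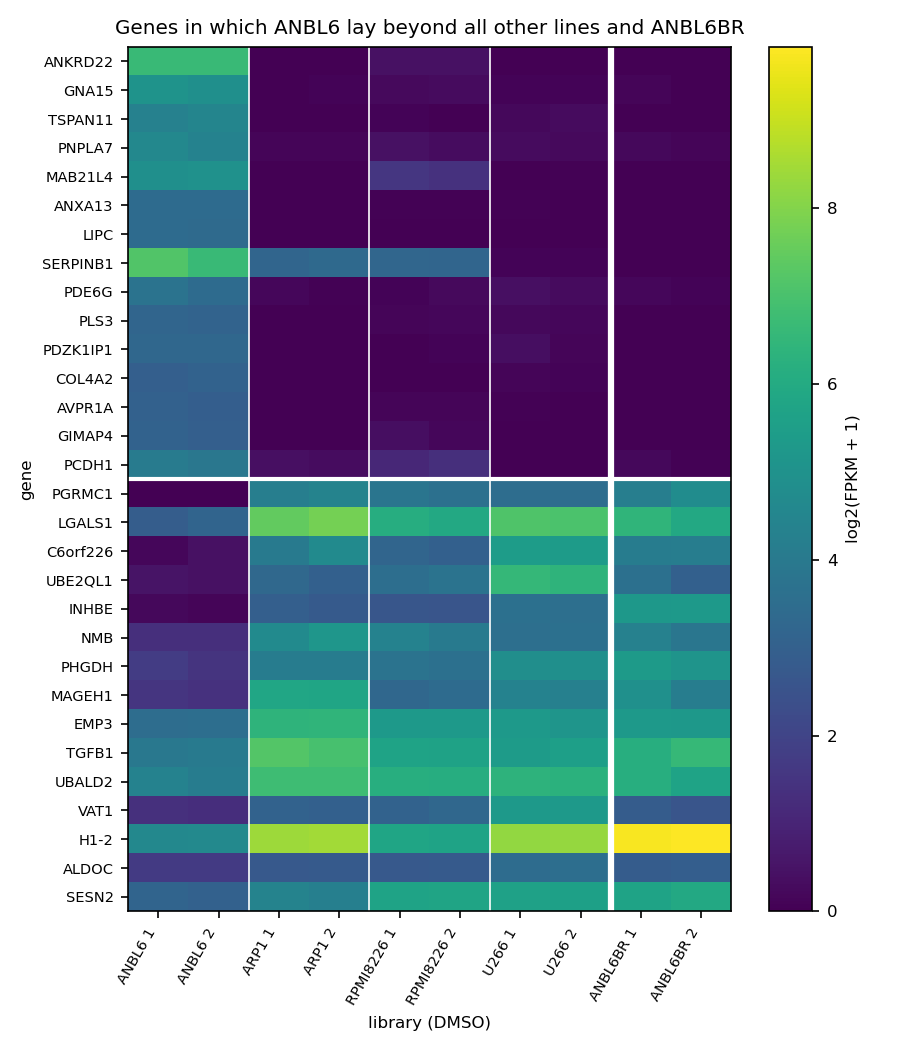
Level on the log2(FPKM + 1) scale, from 0 (dark) upwards, of 30 sequence-unique genes in the DMSO libraries. The upper 15 lie above every other line and the lower 15 below, ANBL6BR included. ANKRD22 stands at 101 and 102 FPKM in ANBL6 and PGRMC1 at 0 and 0.0188.

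Among genes driven by ATF4 and CHOP, many more were lower than higher in ANBL6. Of 29 tested, 13 were lower in ANBL6 than in each other line and 1 was higher, and 15 did not pass, where 9.17% of the 12209 other genes were lower and 13% higher. All 29 reached 1 FPKM in at least 2 libraries of the other lines. The list median was -0.81, against -0.1 for the 12209 genes, and it was -0.84 with the GC adjustment and -0.9 with median-ratio scaling. Of its 15 sequence-unique members, 8 were lower and 1 higher. In the same fit of all 13348 genes, 475 of the 6361 sequence-unique genes were lower and 1392 higher. Below the range were 14 in DMSO and 18 in the I3MO libraries, against 16% and 12.4% of all 13348 tested genes. ANBL6BR went the other way, with 19 of the 29 above the range of the 3 lines and 2 below, and a median of 1.17. Of all 13348 tested genes, 3117 lay above that range in ANBL6BR and 2147 below, with a median of -0.02. ANBL6 was lower than ANBL6BR in 27 of the 29, by a median of -1.78, and the share over all genes is not given here. ANBL6BR shared the mitochondrial, ribosomal and GC features of the ANBL6 libraries, and the cause of the lower levels in this list was not tested.

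Transcripts of the 3 enzymes of serine synthesis, members of this list, were lower in ANBL6. PHGDH (ENSG00000092621.10, chromosome 1, 119648411 to 119744226), which encodes the first, stood at 2.35 and 1.81 FPKM in ANBL6, and at 16.6 and 16.4 in ARP1, 12.5 and 11.5 in RPMI8226 and 27.7 and 29 in U266, with 40.1 and 33.1 in ANBL6BR. Its difference was -2.62 ± 0.08 (limma adjusted p = 4.21e-05). The enzymes of the next steps were lower as well, with PSAT1 at 28.9 and 28.6 FPKM in ANBL6 and 36.9 to 81.6 in the other 6 libraries, and PSPH at 3.08 and 3.25 FPKM in ANBL6 and 6.9 to 9.67. CTH, which makes cysteine, stood at 0.9 and 0.769 FPKM in ANBL6 and 2 to 3.69 in the others. ASNS (ENSG00000070669.15, chromosome 7, 97852118 to 97872542), asparagine synthetase, stood at 2.54 and 2.47 FPKM in ANBL6, and at 6.26 and 6.42 in ARP1, 8.12 and 8.91 in RPMI8226 and 11.1 and 10.1 in U266, a difference of -1.41 ± 0.06 (limma adjusted p = 0.000171). For these 5 enzymes, named because they were called lower, ANBL6 did not overlap the other 3 lines.

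Regulators and stress genes were also among the lower members of the list. INHBE (ENSG00000139269.2, chromosome 12, 57452323 to 57459280), an activin subunit, stood at 0.144 and 0.0917 FPKM in ANBL6, and at 6.9 and 5.96 in ARP1, 5.13 and 5.01 in RPMI8226 and 11.5 and 11.2 in U266, with 37.3 and 39 in ANBL6BR. Its difference was -2.88 ± 0.06 (limma adjusted p = 1.27e-05). SESN2, a sestrin that restrains mTORC1 when amino acids are short, stood at 8.06 and 7.28 FPKM in ANBL6 and at 17.9 to 52.2 in the other 6. ATF4 itself stood at 74.9 and 68 FPKM, against 108 to 175 FPKM, a difference of -0.94 ± 0.05 (limma adjusted p = 0.00109). CEBPB, a partner of ATF4, stood at 10.2 and 7.42 FPKM against 21.9 to 40, and TRIB3, a pseudokinase that feeds back on ATF4, at 6.89 and 6.51 against 10.2 to 22.6. CHAC1, which degrades glutathione, the amino acid transporter subunit gene SLC3A2 and the cysteinyl transfer RNA synthetase gene CARS1 were the other lower genes. SLC38A2, a neutral amino acid transporter, was the 1 higher gene, at 18.5 and 17.9 FPKM against 2.74 to 9.16. DDIT3, which encodes CHOP, stood at 0.952 and 0.577 FPKM in ANBL6, inside the 0.412 to 2.66 of the others, and was not called.

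**Figure D4:**
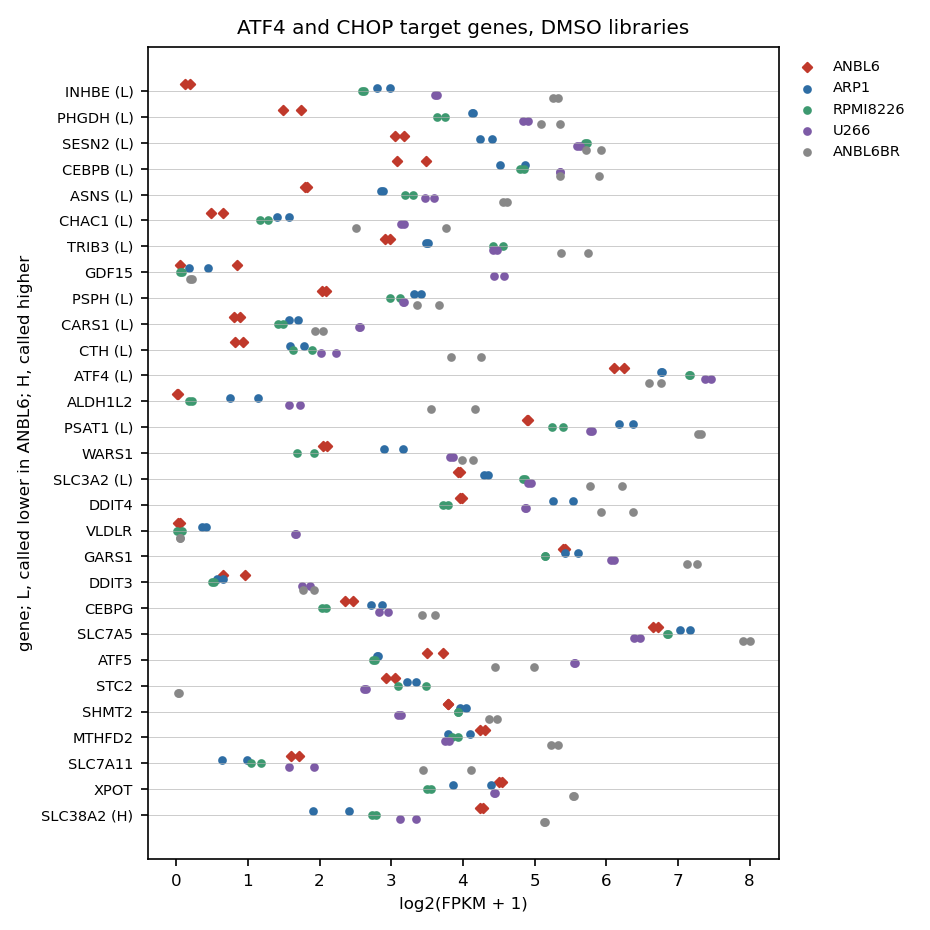
Level on the log2(FPKM + 1) scale of the 29 tested ATF4 and CHOP target genes in each DMSO library, 2 points a line, ordered by the difference of ANBL6 from the 3 lines. L marks the 13 genes called lower in ANBL6 and H the 1 called higher. INHBE and PHGDH are at the top, with ANBL6 (red diamonds) at 0.144 and 0.0917 FPKM and at 2.35 and 1.81 FPKM, the lowest of all lines.

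The promoters of genes called lower that hold the ATF4 composite motif are shown as a description of members of this list. The motif searched was TGATGNAA on either strand, that is TTNCATCA on the other, in windows from 250 bases before to 50 after the gene start (300 bases, RefSeq, build GRCh38.p14). It was found in 4 of 11 matched promoters of genes called lower and in 0 of 13 matched promoters of the rest of the list, with 24 of the 29 genes matched. Of all 27305 promoters 3.67% held it. No test sets these shares against each other, and a part of the motif in the lower levels was not tested. In ASNS (chr7:97872359-97872658, minus strand) it starts 68 bases before the gene start, in CHAC1 (chr15:40953221-40953520, plus strand) 209 bases before and in CARS1 (chr11:3057374-3057673, minus strand) 2 bases before. In SLC3A2, not printed, it starts at base 38 of the transcript. Capitals mark the motif, and the sequences run 5′ to 3′ along the gene.
ASNS: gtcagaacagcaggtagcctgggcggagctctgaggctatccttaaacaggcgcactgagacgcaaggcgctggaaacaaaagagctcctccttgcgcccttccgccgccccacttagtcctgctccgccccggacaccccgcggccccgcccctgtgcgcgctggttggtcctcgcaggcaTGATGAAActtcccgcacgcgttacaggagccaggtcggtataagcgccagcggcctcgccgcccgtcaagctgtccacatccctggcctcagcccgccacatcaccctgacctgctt
CHAC1: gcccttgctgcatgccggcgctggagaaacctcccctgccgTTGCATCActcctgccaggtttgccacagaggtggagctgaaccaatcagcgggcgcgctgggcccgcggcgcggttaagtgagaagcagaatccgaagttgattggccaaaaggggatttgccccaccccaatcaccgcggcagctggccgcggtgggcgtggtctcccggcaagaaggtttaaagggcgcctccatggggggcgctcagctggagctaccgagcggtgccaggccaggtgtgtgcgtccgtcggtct
CARS1: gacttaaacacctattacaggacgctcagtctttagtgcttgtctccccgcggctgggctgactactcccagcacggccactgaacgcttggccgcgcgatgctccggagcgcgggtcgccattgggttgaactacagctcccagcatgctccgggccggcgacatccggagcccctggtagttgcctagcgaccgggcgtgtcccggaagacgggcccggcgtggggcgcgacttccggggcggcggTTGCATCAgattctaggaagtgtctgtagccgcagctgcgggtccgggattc
A match describes these letters alone, and occupancy by ATF4 was not measured.

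Among surface antigens of plasma cells, syndecan-1 and B-cell maturation antigen genes were lower in ANBL6, and CD38 and CD74 were higher. Of 23 antigens and therapy targets, 6 were lower (26.1%, against 9.17% of the 12209 genes), 3 higher (13%, as in the 12209 genes) and 14 did not pass, with a median of -0.86 (-0.77 with the GC adjustment). CRBN, given further on, was tested through ANBL6 alone. TNFRSF17 (ENSG00000048462.9, chromosome 16, 11965107 to 11968068), which encodes B-cell maturation antigen, stood at 11.8 and 11.4 FPKM in ANBL6, and at 46.2 and 60 in ARP1, 45 and 50.8 in RPMI8226 and 115 and 109 in U266, a difference of -2.4 ± 0.11 (limma adjusted p = 0.000171). It lay inside the range in I3MO. SDC1 (ENSG00000115884.9, chromosome 2, 20200797 to 20225433), which encodes syndecan-1, stood at 31.6 and 28.8 FPKM in ANBL6, and at 149 and 152 in ARP1, 71 and 63.4 in RPMI8226 and 269 and 268 in U266, a difference of -2.17 ± 0.06 (limma adjusted p = 0.000176). ANBL6BR overlapped ANBL6 for TNFRSF17, at 33 and 8.86 FPKM, and stood at 90.3 and 42 FPKM of SDC1. For both genes the 3 lines all exceeded ANBL6, and U266 was highest, and with ANBL6BR as a further line neither was called (limma adjusted p = 1 and 0.108).

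CD38 (ENSG00000004468.11, chromosome 4, 15778275 to 15853230), an enzyme that consumes NAD and an antibody target, stood at 30.3 and 25.7 FPKM in ANBL6, and at 7.58 and 6.87 in ARP1, 18.8 and 18.7 in RPMI8226 and 2.28 and 2.24 in U266. Its difference was 1.84 ± 0.07 (limma adjusted p = 0.0055), and the call was lost in 4 of 18 alternatives, among them with median-ratio scaling (limma adjusted p = 0.347) and with the GC adjustment (limma adjusted p = 1). CD74 (ENSG00000019582.13, chromosome 5, 150401637 to 150412929), the invariant chain of MHC class II, stood at 435 and 416 FPKM in ANBL6, and at 50.9 and 47.1 in ARP1, 193 and 209 in RPMI8226 and 101 and 109 in U266, with 15 and 11.4 in ANBL6BR. GPRC5D, a receptor targeted in myeloma, was at 0.029 FPKM in both ANBL6 libraries, at 58.3 and 50.1 in ARP1 and at 0.396 to 0.87 in RPMI8226 and U266. SLAMF7, a further antibody target, was at 0.0112 and 0.0028 FPKM in ANBL6 and 0.152 to 4.6 in the others. The calls of GPRC5D (limma adjusted p = 0.0327) and SLAMF7 (limma adjusted p = 0.0486) were lost in 9 of 16 and 10 of 17 alternatives, among them without either ANBL6 library (limma adjusted p = 0.153 and 0.151 for GPRC5D, 0.249 and 0.287 for SLAMF7 without replicates 1 and 2). CRBN, the target of lenalidomide, at 1.3 and 1.26 FPKM in ANBL6 and 0.429 to 0.68 in the others, was called higher at 0.54 ± 0.07 (limma adjusted p = 0.00543), but was at -0.21 with the GC adjustment. ICAM1, an adhesion receptor, was the other higher antigen, and LY9 and CD79A the other lower ones. The CD79A call (limma adjusted p = 0.0428) was lost in 10 of 17 alternatives, among them without either ANBL6 library (limma adjusted p = 0.175 and 0.203) and with the GC adjustment (limma adjusted p = 1).

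As markers, the 12 listed plasma cell genes, of which 9 were tested, summed to 354 and 387 FPKM in ANBL6, against 504 to 626 FPKM in the other lines. XBP1, the plasma cell transcription factor, is listed at 0 in all 8 libraries and in ANBL6BR, as are CD24 and CD99. Whether such a listed 0 comes from absent RNA or from the counting was not tested. Mature B cell markers summed to 20.9 and 21.1 FPKM in ANBL6, against 9.19 to 22 FPKM, with MS4A1 and PAX5 at 0 in ANBL6. T cell, NK cell, erythroid, stromal and endothelial markers summed to at most 1.65 FPKM in ANBL6, with CD3D, CD3G, TRAC, KLRD1, HBB, DCN and CDH5 at 0. Monocyte markers summed to 5.53 and 5.55 FPKM in ANBL6, against 0.116 to 55.3 FPKM, mostly ITGAM.

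Several genes of MHC class I presentation were lower in ANBL6, and its trimming peptidases were higher. Of 15 tested, 7 were lower (46.7%, against 9.17%), 2 higher (13.3%, against 13%) and 6 did not pass, with a median of -1.42. In ANBL6BR 8 of the 15 lay below the range, as did 2147 of all 13348 tested genes. HLA-E, a ligand of NK cell receptors, stood at 9.43 and 8.59 FPKM in ANBL6, against 37.3 to 92 FPKM in the other 6 libraries. PSMB8, an immunoproteasome subunit, stood at 9.75 and 8.7 FPKM against 24.4 to 39.5, and TAPBP, the peptide-loading chaperone tapasin, at 2.64 and 2.67 against 7.49 to 13.9. HLA-B, TAP1 and PSMB9 were lower too. All 6 of these genes are in the MHC region, where 77.6% of protein-coding genes lay below the range. B2M, the class I light chain on chromosome 15, is not, and stood at 46.3 and 38 FPKM against 87 to 326 FPKM, with 40 and 34.1 in ANBL6BR. ERAP2 and ERAP1, ER peptidases that trim class I peptides, were higher, with ERAP2 at 5.46 and 5.76 FPKM against 0.432 to 1.41. Among 13 class II genes 2 were higher, CD74 and the activator gene RFX5, and 2 lower, HLA-DPA1 and HLA-DMA (15.4% each), and HLA-DRA stood at 63.4 and 54.7 FPKM against 51.8 to 87.6 FPKM. The RFX5 call was lost with median-ratio scaling (limma adjusted p = 0.0765). Those of PSMB8, TAPBP and HLA-DPA1 were lost with ANBL6BR as a further line. The HLA-DMA call was lost in 11 of 18 alternatives, among them without either ANBL6 library (limma adjusted p = 0.173 and 0.231).

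Some NF-kB targets and regulators were higher in ANBL6, without a rise of the list medians that held under each setting. Of 17 NF-kB targets, 4 were higher (23.5%, against 13% of the 12209 genes) and 1 lower (5.88%, against 9.17%), with a median of 0.18 (0.02 with median-ratio scaling and -0.07 with the GC adjustment). PLEK (ENSG00000115956.9, chromosome 2, 68365173 to 68397453), pleckstrin, a substrate of protein kinase C in blood cells, stood at 111 and 123 FPKM in ANBL6, and at 0.661 and 0.493 in ARP1, 15.9 and 15.2 in RPMI8226 and 2.48 and 2.54 in U266, a difference of 4.71 ± 0.07 (limma adjusted p = 8.83e-06). LTB, lymphotoxin beta, stood at 9.81 and 8.26 FPKM in ANBL6 and at most 2.89 in the others. LTB lies in the MHC region, where 2 of 76 genes were above the range. TRAF1 and ICAM1 were the other higher targets, with ICAM1 at 85.8 and 73 FPKM in ANBL6 and 0.941 to 53.1 in the others. BCL2A1, tested through ANBL6 alone, stood at 1.09 and 1.01 FPKM against at most 0.198. KLF2, a zinc finger gene, was lower, at 4.85 and 4.07 FPKM against 12.6 to 94.2. Of 23 tumour suppressors and NF-kB regulators, 7 were higher (30.4%) and 3 lower (13%), with a median of -0.31. BIRC3 (ENSG00000023445.12, chromosome 11, 102317450 to 102339403), a ubiquitin ligase that restrains the alternative pathway, stood at 18.6 and 19.5 FPKM in ANBL6, and at 0.199 and 0.48 in ARP1, 0.554 and 0.63 in RPMI8226 and 8.42 and 11 in U266. Its call (limma adjusted p = 0.00531) was lost with the GC adjustment (limma adjusted p = 0.113) and with a pseudocount of 0.1 (limma adjusted p = 0.0793). MAP3K14, which encodes the NF-kB-inducing kinase, stood at 8.24 and 7.16 FPKM against 1.32 to 4.96, and DIS3, an exosome nuclease gene, was also higher, at 5.09 and 5.31 FPKM. The calls of KLF2, MAP3K14 and DIS3 were lost with ANBL6BR as a further line. ATM, the DNA damage kinase gene, tested through ANBL6 alone, stood at 1.73 and 1.79 FPKM against 0.271 to 0.616, and its difference of 0.97 was 0.22 with the GC adjustment, where it was not called (limma adjusted p = 1).

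Among secreted factors IL32 and CXCL10 were higher in ANBL6, and TGFB1 and CCL5 lower. Of 21 chemokines, cytokines and secreted factors, 3 were higher (14.3%, against 13%) and 2 lower (9.52%, against 9.17%), shares near those of the 12209 genes. IL32 (ENSG00000008517.15, chromosome 16, 3065297 to 3082192), an inflammatory cytokine gene, stood at 22.3 and 20 FPKM in ANBL6, and at 3.4 and 3.58 in ARP1, 1.24 and 1.15 in RPMI8226 and 1.04 and 0.908 in U266, a difference of 3.04 ± 0.06 (limma adjusted p = 1.51e-05). CXCL10, a chemokine gene, stood at 91.8 and 130 FPKM against 0 to 60.2. TNFSF10, the death ligand TRAIL, at 3.67 and 3.2 FPKM against at most 0.479, and IL10, at 1.96 and 1.8 against at most 0.277, were tested through ANBL6 alone. TGFB1 was lower, at 14.3 and 15.5 FPKM against 41.4 to 147, and so was CCL5, at 1.48 and 1.27 against 4.34 to 18.9. Of 22 adhesion and homing genes 1 was higher, ICAM1, and 1 lower (4.55% each). The integrin genes ITGB2 (3.31 and 3.17 FPKM against at most 0.335), ITGAM (4.26 and 4.47 against at most 0.914) and ITGAV (2.98 and 3.02 against at most 0.816) were tested through ANBL6 alone. The chemokine receptor gene CCR1 was lower, at 25.9 and 18.6 FPKM against 49.9 to 88.3, a call lost with ANBL6BR as a further line.

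Some markers of epithelial cells were detected at low levels in ANBL6. In such bulk samples more cells of a type and more RNA per cell cannot be told apart. Of 14 listed, 8 were tested, 4 of them through ANBL6 alone, and 2 of the other 4 were called higher, KRT18 and KRT7. The listed markers summed to 43.2 and 44.4 FPKM in ANBL6, against 1.07 to 29.5 FPKM in the other 6 libraries. KRT18, a keratin gene, stood at 19.7 and 20.2 FPKM in ANBL6 and 0.357 to 10 in the others. ELF3, an epithelial transcription factor gene, stood at 4.56 and 4.36 FPKM in ANBL6 and at most 0.658, and with KRT5, MUC1 and ESRP1 was tested through ANBL6 alone. The MUC1 call was lost in 11 of 15 alternatives, among them median-ratio scaling (limma adjusted p = 0.576), a pseudocount of 0.1 (0.13), the replicate block (0.0763) and leaving out any of 5 libraries (0.0755 to 0.12, all limma adjusted p). KRT19, KRT14 and GRHL2 were at 0 in ANBL6. In ANBL6BR KRT18 was at 0 and 0.00783 FPKM and ELF3 at 0.0182 and 0.0642.

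Of 18 IL6 and STAT3 signalling genes, 3 were higher in the limma test (16.7%, against 13% of the 12209 genes) and 0 lower, with a median of 0.4 (0.24 with the GC adjustment). SOCS1, a feedback inhibitor of cytokine receptors, stood at 11.4 and 10.6 FPKM in ANBL6 and 2.59 to 5.64 in the others. JAK1 and IL6ST, which encode the kinase and the shared receptor subunit of interleukin-6 signalling, stood at 13.9 and 13.5 and at 2.25 and 2.36 FPKM, and with the GC adjustment IL6ST was at 0.23 (limma adjusted p = 1). The IL6ST call was also lost with all 20 libraries in the fit (limma adjusted p = 0.094). The JAK1 call was lost in 5 of 18 alternatives, among them without either ANBL6 library (limma adjusted p = 0.0889 and 0.0663). SOCS3 stood at 14.6 and 27.8 FPKM in ANBL6, between 0.376 to 1.92 in ARP1 and RPMI8226 and 51.3 and 48.5 in U266. IL6R showed the same order, at 12.7 and 11.2 FPKM in ANBL6, with 0.296 to 4.4 in ARP1 and RPMI8226 and 81.2 and 79.9 in U266. IL6 itself was at 0 in both ANBL6 libraries and at 1.19 and 1.25 FPKM in U266. Of 26 interferon-stimulated genes 1 was higher (3.85%) and 4 lower (15.4%). ISG15, a ubiquitin-like modifier, stood at 7.49 and 6.36 FPKM against 18.4 to 98.9, OAS2 and OAS3, sensors of double-stranded RNA, were also lower, and IFITM2, an antiviral membrane protein gene tested through ANBL6 alone, stood at 2.07 and 1.92 FPKM against at most 0.254. Of 23 immediate early genes 3 were lower (13%, against 9.17%) and 1 higher (4.35%, against 13%), and DUSP5, a phosphatase of nuclear ERK, stood at 2.85 and 3.03 FPKM in ANBL6, against 237 and 183 in ARP1, 34.8 and 37.7 in RPMI8226 and 149 and 134 in U266. ANBL6BR was low in DUSP5 as well, at 15.8 and 4.35 FPKM. With ANBL6BR as a further line the calls of DUSP5, ISG15 and OAS3 were lost.

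FAS, FDXR and ZMAT3 were also higher in ANBL6. FAS (ENSG00000026103.18, chromosome 10, 88990582 to 89015785), a death receptor gene, stood at 5.5 and 5.8 FPKM in ANBL6, and at 0.0596 and 0.0805 in ARP1, 0.612 and 0.691 in RPMI8226 and 0.517 and 0.622 in U266, with 0.411 and 0.912 in ANBL6BR. Its difference was 2.24 ± 0.06 (limma adjusted p = 1.52e-05), and it was tested through ANBL6 alone. FDXR, a mitochondrial reductase gene, stood at 6.9 and 6.48 FPKM against at most 1.76, and ZMAT3, an RNA-binding protein gene, at 6.61 and 5.5 against at most 1.3.

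In the cell cycle, 8 of 29 mitotic genes were higher (27.6%, against 13% of the 12209 genes) and 0 lower in the limma test, with a median of 0.56 (0.51 with the GC adjustment). Of all 30 tested, 15 lay above the range in ANBL6BR, as did 3117 of all 13348 tested genes. BUB1, a checkpoint kinase, stood at 28.2 and 25.7 FPKM in ANBL6, against 2.65 to 5.36 FPKM in the other 6 libraries. NDC80, a kinetochore gene, stood at 17.2 and 17.7 FPKM against 3.24 to 7.32, and TTK, a further checkpoint kinase, at 4.57 and 4.34 against 0.523 to 1.69. TOP2A, topoisomerase II, stood at 62.1 and 59.5 FPKM against 5.32 to 30, and its call was lost without either ANBL6 library (limma adjusted p = 0.0967 and 0.0863). Of 34 replication genes 7 were higher and 7 lower (20.6% each, against 13% and 9.17%). CDC6, a licensing factor, stood at 37.7 and 35.1 FPKM against 11.4 to 20.4, and RRM2, a subunit of ribonucleotide reductase, at 13.7 and 14.8 against 28.3 to 123. RFC2 was lower, and CCNE2, tested through ANBL6 alone, stood at 2.01 and 2.09 FPKM against 0.161 to 0.765. The calls of BUB1, NDC80, TTK, CDC6, RRM2, RFC2 and CCNE2 were lost with ANBL6BR as a further line. RB1 stood at 6.28 and 6.46 FPKM against 0.358 to 4.77, a call (limma adjusted p = 0.0417) that was lost in 11 of 18 alternatives, among them with the GC adjustment (limma adjusted p = 1) and without either ANBL6 library (limma adjusted p = 0.169 and 0.193).

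Among metabolic lists, cholesterol synthesis had 7 of 21 genes lower (33.3%, against 9.17% of the 12209 genes), 0 higher and 14 not called in the limma test, and a median of -0.54 (-0.66 with the GC adjustment). SQLE, squalene epoxidase, stood at 4.46 and 4.79 FPKM in ANBL6, against 17.3 to 24.1 FPKM in the other 6 libraries, and PMVK, phosphomevalonate kinase, at 17.9 and 20.9 against 48.5 to 175. FDFT1, LSS, MSMO1, EBP and HSD17B7 were the other lower genes. With ANBL6BR as a further line the calls of SQLE, PMVK and HSD17B7 were lost. STARD4, a sterol carrier gene tested through ANBL6 alone, stood at 2.49 and 2.46 FPKM against 0.429 to 0.972. In the I3MO libraries 7 of all 23 tested lay below the range and 0 above, and ANBL6BR had 7 below in DMSO. Of all 13348 tested genes, 1655 lay below and 2572 above in I3MO, and 2147 lay below in ANBL6BR. Of 28 glycolysis and hypoxia genes 7 were higher (25%, against 13%) and 4 lower (14.3%, against 9.17%). SLC2A1, the glucose transporter gene, stood at 28.4 and 27.7 FPKM in ANBL6, and at 4.11 and 3.29 in ARP1, 13.6 and 14.1 in RPMI8226 and 1.15 and 1.59 in U266. PDK1, which restrains entry of pyruvate into mitochondria, was higher at 6.18 and 5.15 FPKM, and ALDOC lower at 2.18 in both libraries. PGAM1 stood at 18 and 19.8 FPKM against 138 to 263, and ANBL6BR stood at 13.4 and 12.9. PGAM1 is not sequence-unique, and the calls of PGAM1 and PDK1 were lost with ANBL6BR as a further line. Of 30 nuclear OXPHOS genes 6 were higher (20%), among them NDUFA2, and 3 lower (10%), among them UQCRFS1. Of all 31 tested 5 were sequence-unique, none of which was called. NDUFA2 and UQCRFS1 lost their calls with ANBL6BR as a further line.

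Of 21 targets of NRF2, the regulator of the oxidative stress response, 3 were higher (14.3%, against 13%) and 1 lower (4.76%, against 9.17%), shares near or below those of the 12209 genes. ME1, malic enzyme, stood at 27.4 and 25.3 FPKM in ANBL6, against 0 in ARP1, 13 and 15.2 in RPMI8226 and 5.78 and 6.02 in U266. The ME1 call was lost with the GC adjustment (limma adjusted p = 0.215) and with all 20 libraries in the fit (limma adjusted p = 0.0636). PIR was listed at 0 in both ANBL6 libraries, against 2.88 to 6.8 FPKM in the others, and GCLC and TXNRD1 were higher. Of 27 ER chaperones and folding enzymes 5 were higher (18.5%, against 13%) and 3 lower (11.1%, against 9.17%), with CANX (calnexin) at 100 and 107 FPKM against 26 to 32.8, HSP90B1 at 74.5 and 67.2 against 17.8 to 34.5, and SDF2L1 lower at 30.5 and 28.5 against 50.6 to 221. The SDF2L1 call was lost with the GC adjustment (limma adjusted p = 0.0591) and without either ANBL6 library (limma adjusted p = 0.0628 and 0.0814). Of 31 proteasome subunits 5 were higher (16.1%, against 13%) and 9 lower (29%, against 9.17%). PSMC4, an ATPase of the regulatory particle, stood at 7.01 and 7.3 FPKM against 25.8 to 54, PSMC1 at 0.102 and 0.115 against 3.64 to 7.31, and PSMB3 at 32.9 and 32.6 against 80.7 to 122, while PSMD12 was higher. With ANBL6BR as a further line the calls of ME1, GCLC, CANX, HSP90B1, SDF2L1, PSMC1, PSMB3 and PSMD12 were lost. PSMB5, which encodes the subunit that bortezomib binds, stood at 16.2 and 15.3 FPKM in ANBL6, inside the 10.2 to 17.5 of the others. Of 34 cytosolic ribosomal protein genes 23 were lower (67.6%) and 2 higher (5.88%), with a median of -1.06 in ANBL6 and -1.75 in ANBL6BR, and 0 were sequence-unique. The higher ones were RPS23, at 67.1 and 65.4 FPKM, and RPL30.

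Among genes that mark myeloma subtypes, MAF, CCND1, MYC and NSD2 put ANBL6 inside the range of the other lines. MAF, the transcription factor raised by one of the immunoglobulin translocations of myeloma, stood at 88.4 and 80.7 FPKM in ANBL6, and at 26.6 and 23.3 in ARP1, 144 and 126 in RPMI8226 and 5.74 and 5.04 in U266. CCND1 stood at 26 and 25.8 FPKM in ANBL6 and at 130 and 137 in U266, and CCND2 at 26.5 and 27 in ANBL6 and 31.6 to 53.8 in the others. MYC stood at 105 and 94.8 FPKM in ANBL6, and at 40.4 and 33.1 in ARP1, 111 in both RPMI8226 libraries and 0.651 and 0.721 in U266. MYCL, a relative of MYC, stood at 0.303 and 0.302 FPKM in ANBL6, against 77.1 and 73.4 in U266. NSD2 stood at 2.41 FPKM in both ANBL6 libraries and 1.95 to 4.33 in the others. IRF4, a factor plasma cells depend on, stood at 23.8 and 21.2 FPKM in ANBL6, below the 29.4 to 114 of the others, and was not called (limma adjusted p = 0.0768). It was called lower under 6 of 18 alternatives, among them median-ratio scaling (limma adjusted p = 0.0108), the GC adjustment (0.0126) and leaving out either ARP1 library (0.0142 and 0.0132, all limma adjusted p). PRDM1, CDKN2A, TRAF3, STAT3, BCL2, MCL1 and BCL2L1 were not called either, apart from BCL2 with the GC adjustment (-0.87, limma adjusted p = 0.0192). Of the 11 tested MAF targets 0 were higher and 2 lower in the limma test, CCND2 and CCR1, and the CCND2 call (limma adjusted p = 0.0447) was lost in 12 of 18 alternatives, among them without either ANBL6 library (limma adjusted p = 0.234 and 0.183). Of 19 plasma cell and B cell transcription factors 2 were higher (10.5%, against 13%), ETV6 at 14.9 and 13.4 FPKM against 3.02 to 5.64, and RUNX3, whose call was lost in 13 of 18 alternatives, among them without either ANBL6 library (limma adjusted p = 0.103 and 0.304).

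The genes listed as cancer-testis genes, most of which are silent in most normal tissues, differed in identity between the lines. Of 20 genes 4 were higher (20%, against 13%) and 3 lower (15%, against 9.17%). GAGE2A stood at 51.5 and 47.9 FPKM in ANBL6, against 0 in ARP1 and at most 1.88 in the other 6 libraries, and 0 in ANBL6BR, but has near-identical copies. PASD1, a sequence-unique gene, stood at 11.8 and 12.3 FPKM against at most 4.51, with 0 and 0.00961 in ANBL6BR, and PAGE1 at 160 and 139 against 0.0903 to 94.2. SSX1, tested through ANBL6 alone, stood at 3.96 and 4.12 FPKM against at most 0.957, and at 87.5 and 140 in ANBL6BR. MAGEA3 stood at 0 and 0.0159 FPKM against 2.18 to 83.3. MAGED1, a list member that is not silent in normal tissues, stood at 0.00312 and 0 FPKM against 1.2 to 11.2. APOBEC3G, a cytidine deaminase gene, was the 1 called gene of 5 tested in its family, at 14.2 and 14.7 FPKM against 0.143 to 3.66. In the BMP, ID and WNT list BMP6 stood at 0.374 and 0.498 FPKM against 3.88 to 39.2, and SMAD5 was higher. The calls of MAGEA3, SSX1, BMP6 and SMAD5 were lost with ANBL6BR as a further line. BMPR2, tested through ANBL6 alone, stood at 2.27 and 2.24 FPKM against 0.266 to 0.866, and its difference of 1.13 was 0.3 with the GC adjustment, where it was not called (limma adjusted p = 0.475). In the BCL2 family the pro-apoptotic genes BID and BMF were lower and BAD higher. The BAD call was lost without ANBL6 replicate 2 (limma adjusted p = 0.0512), and BID and BMF lost their calls without either ANBL6 library (limma adjusted p = 0.0701 and 0.0629 for BID, 0.201 and 0.0981 for BMF). None of the 9 tested HOX and homeobox genes was called by limma, and 2 lay below the range.

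By position, chromosomes 13 and 18 held the largest shares of protein-coding genes above the range, at 50.9% of 175 and 46% of 124, against 29.3% of all 9996. Chromosome 20 held the largest share below, 30.2% of 281, against 16.4%, then chromosome 7, with 24.5% of 457. Among sequence-unique genes the shares were 53.6% above on chromosome 13, 47.5% above on chromosome 18, and 29.1% below on chromosome 20, where 30.1% of all sequence-unique genes were above and 15% below. Chromosome 7, with 18.5% of its sequence-unique genes below, came after chromosomes 19 (24.7%), X (19.4%) and 22 (18.8%). The median GC content of the genes was 42.8% on chromosome 13 and 44.4% on chromosome 18, and with the GC adjustment the median differences were 0.31 on chromosome 13, 0.1 on chromosome 18, -0.26 on chromosome 20 and -0.29 on chromosome 7, against 0.76, 0.4, -0.22 and -0.16 without it. The part of chromosome copy number in these values was not tested.

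**Figure D5:**
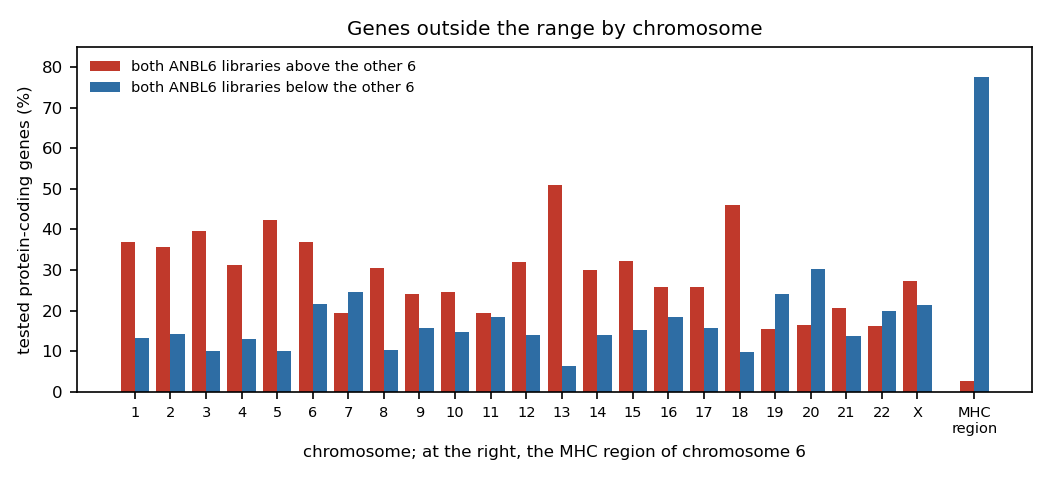
Percent of tested protein-coding genes of each chromosome with both ANBL6 libraries above (red) or below (blue) the 6 libraries of the other lines, and the same for the MHC region. Chromosome 13 stands at 50.9% above, chromosome 20 at 30.2% below and the MHC region at 77.6% below.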

How the data were processed

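RNA-seq values were the FPKM that the authors deposited as 1 matrix of all 20 libraries. Reads were trimmed (Trimmomatic 0.32 and 0.36), aligned with STAR and handled with SAMtools on hg38, per the submitters' processing notes, and the counting tool is not given in the sources used here. Single-exon genes gave whole fragments in 98.2% to 100% of values (within 0.02 fragments), which set the library totals. The FPKM were transformed to log2(FPKM + 1) and fitted with limma 3.58.1 (R 4.3.3), 1 mean per line over 8 libraries with a variance trend, and tested on simulated data. Alternatives were another pseudocount, other filters, median-ratio scaling, left-out libraries, all 20 libraries, no trend and a replicate block. The 15 genes each way with the widest gap, at 5 FPKM or more in the higher cells, up to 4 called genes a list and a fixed set were to be named. Members, lists and this rule were chosen with earlier results of these data known, and other genes were named after their values were seen. Promoters were matched by symbol. Replicates were grouped by the labels, and ANBL6BR entered no fit but the one that adds it. Limma across genes gave each adjusted p. A few genes that this rule names are not reported here.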

Additional observations from a re-analysis of the deposited data

Results flagged for a closer look

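For 50 named genes the difference of ANBL6 from the mean of the 3 other lines was not the same with I3MO as with DMSO, by a test of that difference itself (limma interaction over 20 libraries, adjusted p under 0.05), as it was for 1720 of all 13348 genes (12.9%). ANBL6 received 5 µM of I3MO and the other lines 10 µM, so dose and line cannot be told apart. Most of these genes were named for a wide difference in DMSO, which that choice favours over I3MO. Each value is the I3MO difference minus the DMSO difference on the log2(FPKM + 1) scale.

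Several genes low in ANBL6 in DMSO were less so with I3MO. H1-2, a linker histone gene, and ISG15, an interferon-induced modifier gene, both shifted by 1.96, TNFRSF17 by 1.75, RRM2 by 1.33 and the neuropeptide gene NMB by 1.09. PHGDH shifted by 1.04, SDC1 by 1.02, UBALD2 by 1.01, EMP3 by 0.96, MAGEH1 by 0.87, LGALS1 by 0.79, TGFB1 by 0.76, OAS2 by 0.75 and RPS26 by 0.73. CD79A shifted by 0.72, VAT1 and ALDOC by 0.7 each, MYCL by 0.59, HLA-DMA by 0.58, PGAM1 by 0.54, BMF by 0.51, UQCRFS1 by 0.49, BID by 0.46, RFC2 by 0.39, HLA-DPA1 by 0.31 and IL6 by 0.22. On this scale, which understates differences of low genes, INHBE was further below with I3MO, by -0.77. INHBE stood at 0.144 and 0.0917 FPKM in ANBL6 in DMSO, against 5.01 to 11.5 FPKM in the other lines. With I3MO INHBE stood at 1.3 and 2.18 FPKM in ANBL6, against 10.5 to 84.7 FPKM. Its shift is therefore not set against that of PHGDH, also a target of ATF4.

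Several genes high in ANBL6 in DMSO were less so with I3MO. The shift was -1.56 for ANXA13, -1.27 for the epithelial factor gene ELF3, -1.16 for SOCS3, -1.06 for PDE6G, -0.74 for PLEK, -0.72 for SERPINB1, -0.71 for HSP90B1, -0.68 for RB1, -0.67 for ITGB2 and -0.64 for CANX. It was -0.52 for CYP1A1, a target of the aryl hydrocarbon receptor, -0.48 for ICAM1, -0.46 for MUC1, -0.43 for ITGAM, -0.4 for ANKRD22, -0.33 for GIMAP4 and -0.32 for TSPAN11. The CYP1A1 call in DMSO was lost in 8 of 17 alternatives, among them median-ratio scaling (limma adjusted p = 0.966). CD74 was further above with I3MO, by 0.79, as were IL32 by 0.78, MAB21L4 and ATP5PO by 0.43 each and LIPC by 0.26. CCND3, not called in DMSO, changed side, at -0.17 with DMSO and 0.41 with I3MO, a shift of 0.58. No group held enough libraries to look for a library that stands apart.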

How the results depend on the processing

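The 2413 higher and 1119 lower calls became 1190 and 768 with a filter of 5 FPKM, 1492 and 532 in sequence-unique genes, 943 and 287 with ANBL6BR as a further line, and 2298 and 1014 with a replicate block. The replicate numbers pair no samples (correlations of deviations -0.101 to 0.0509). The 3399 genes above and 2134 below became 5419 and 2776 with no filter, 1555 and 1147 at 5 FPKM, 1912 and 952 in sequence-unique genes, 2063 and 1217 with ANBL6BR, and 687 and 276 for gaps of at least 2-fold. Leaving out 1 library gave 1063 to 2660 higher and 678 to 1139 lower calls, 2843 to 3536 genes above and 2004 to 2417 below. The contrast with the mean of the 3 lines called 10104 genes, 4836 at 5 FPKM, 5215 in sequence-unique genes and 9940 with the replicate block. With line means as the samples, 1 against 3, limma called 0, with 1186 at an unadjusted p under 0.05. On the same side with I3MO were 3252 genes, of which 1551 were sequence-unique. Of the 185 named genes 87 lost their call with ANBL6BR added. The 185 include the named sequence-unique genes, chosen as called in that fit, and fixed genes not called in the main fit. Neither kind could lose a call there. Direction changed for PIM2 (0.04), HLA-DRA (0.13) and CRBN (-0.21) with the GC adjustment and for PSMB5 (-0.04) with median-ratio scaling. NSD2 ranged over -0.09 to 0.01 as libraries were left out. The cause of these changes was not tested.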
